A study of Mus musculus with 96 samples.

Results

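Amino acid breakdown was followed through the transcripts of 9 enzymes, Tat, Sds, Prodh, Aass, Gls2, Tdo2, Hal, Bckdha and Gpt2, picked by gene name out of the 56748 genes of an RNA sequencing count table. C57BL/6 mice ate without restriction (ad libitum, AL) or fasted for 16 h a day (intermittent fasting, IF) for 4 months from 6 weeks of age, and liver, muscle and cerebral cortex were sequenced from each animal. Mice 1 to 16 are labelled male and mice 25 to 40 female, with 8 AL and 8 IF animals in each set. The IF males were sampled at the end of a fast, so the fasted state, the hours of feeding and the months of the regimen cannot be told apart. The study's methods describe the males, and the diet of the females is known from the sample labels alone. For the females the hours of the fast, the months of the regimen, the age at its start and the time of sampling are not given. Sex and anything else that separates the mouse sets cannot be told apart either.

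Amino acids that are not built into protein lose their nitrogen, which the liver turns into urea, and their carbon skeletons enter the citric acid cycle, glucose synthesis or ketone body synthesis. Most of these pathways begin with an enzyme that commits 1 amino acid to breakdown, and many of those enzymes are made mainly by hepatocytes. Branched-chain amino acids are the known exception, since muscle performs the first transamination and other tissues share the oxidation that follows.

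The table holds 96 libraries, 32 from each tissue, with totals from 26097314 to 44763638 counts in liver, 28319147 to 49838004 in muscle and 31231970 to 47904499 in cortex. The level of a gene in a library is its count after scaling every library to an equal total, in CPM. Levels of different genes are compared as CPM per kilobase of the deposited gene length (RPKM). That length, 7797 bases for Prodh, need not be that of the transcript made in a tissue, so orders and shares per length depend on it. Tissue labels matched their markers: the summed level of the hepatocyte markers, 5 of whose 6 genes are in the table, was at least 52908 CPM in liver and at most 6.32 CPM in muscle. The 6 muscle fibre markers summed to at least 132999 CPM in muscle, and the 5 neuron markers to at least 4923 CPM in cortex. In some cortex libraries the hepatocyte list reached 4271 CPM, with Ttr, which the choroid plexus also makes, as its most abundant gene.

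One library went against its label. The cortex library of AL mouse 1, labelled male, held 213 CPM of Xist, the RNA that coats the inactive X chromosome of females, where the other cortex libraries of mice 1 to 16 held at most 0.229 CPM. It held 0 counts of the Y-linked genes Ddx3y, Eif2s3y, Kdm5d and Uty. That library was left out, so the male cortex comparison has 7 AL and 8 IF libraries, and results with it are given where it bears on them. Xist and the Y-linked genes matched the labelled sex in all the other libraries.

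Per length and in AL mice, Tat was the most abundant of the 9 transcripts in liver, with a median of 270 RPKM over 16 libraries. Sds (101 RPKM), Tdo2 (87.4 RPKM) and Gls2 (83.3 RPKM) followed, then Hal (58.5 RPKM), Gpt2 (42.0 RPKM), Prodh (39.9 RPKM) and Aass (36.2 RPKM). These medians pool the mouse sets, and the order below Tat differed between them. In AL males Tdo2 (117 RPKM), Gls2 (74.6 RPKM) and Sds (64.1 RPKM) came next. In AL females it was Sds (129 RPKM), Gls2 (108 RPKM) and Tdo2 (80.2 RPKM), then Prodh (61.4 RPKM), Hal (59.4 RPKM) and Gpt2 (55.3 RPKM). Neighbours in the pooled order overlapped in range, from Tat at 131 to 484 RPKM and Sds at 31.1 to 286 RPKM down to Aass at 27.2 to 58.4 RPKM. Bckdha stood apart at 6.55 RPKM, with a range of 2.72 to 10.1 RPKM that met none of the other 8. In muscle the order was a different one: Gpt2 had a median of 31.2 RPKM (26.4 to 50.4) and Bckdha 26.9 RPKM (23.4 to 33.3), which overlap, followed by Prodh at 1.16 RPKM. The other 6 transcripts had medians of at most 0.0359 RPKM in muscle, and Tat and Hal were at 0 in most muscle libraries. In cortex Gls2 led with 11.2 RPKM over 15 libraries, followed by Gpt2 (7.21 RPKM), Bckdha (6.08 RPKM) and Prodh (5.14 RPKM), and each of these overlapped its neighbour. Sds (0.824 RPKM), Aass (0.793 RPKM) and Tdo2 (0.150 RPKM) were scarce there, and Hal and Tat were near 0.

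Of the 9 genes, 4 share their position with other annotated genes in GRCm39. Prodh (ENSMUSG00000003526, chr16:17878221-17908067) overlaps Dgcr6 on the opposite strand, and Bckdha (ENSMUSG00000060376, chr7:25329371-25358406) overlaps B3gnt8 on the opposite strand. Gls2 (ENSMUSG00000044005, chr10:128030326-128045873) overlaps Spryd4 on the opposite strand and Gm52965 on its own strand, and Sds (ENSMUSG00000029597, chr5:120614591-120621997) overlaps Plbd2 and Gm15690 on the opposite strand. The libraries keep the strand of the RNA, but whether the counting used it is not stated, so how reads in these overlaps were assigned is uncertain. Hal (ENSMUSG00000020017, chr10:93324630-93355166), Tat (ENSMUSG00000001670, chr8:110717069-110726435), Aass (ENSMUSG00000029695, chr6:23072172-23132985), Tdo2 (ENSMUSG00000028011, chr3:81864397-81883509) and Gpt2 (ENSMUSG00000031700, chr8:86219205-86254189) overlap no other gene.

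In liver of the male mice, Prodh and Bckdha were higher in IF than in AL, and Gls2 and Hal were lower. These 4 of 9 passed an adjusted p of 0.05 in edgeR, beside 44.6% of the 16204 genes tested, so the count of enzymes was close to that of genes at large. The median log2 fold change, IF over AL, was 0.24 over the 9 enzymes and 0.06 over all genes tested. Of all genes tested 3815 were higher and 3419 lower, and with library size as the only scaling 4402 and 2694. With that scaling 6 of the 9 enzymes passed, 4 higher and 2 lower, with Gpt2 and Aass as the added ones. In the edgeR fit with TMM scaling Tat, Sds, Aass, Tdo2 and Gpt2 did not pass.

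**Figure D1:**
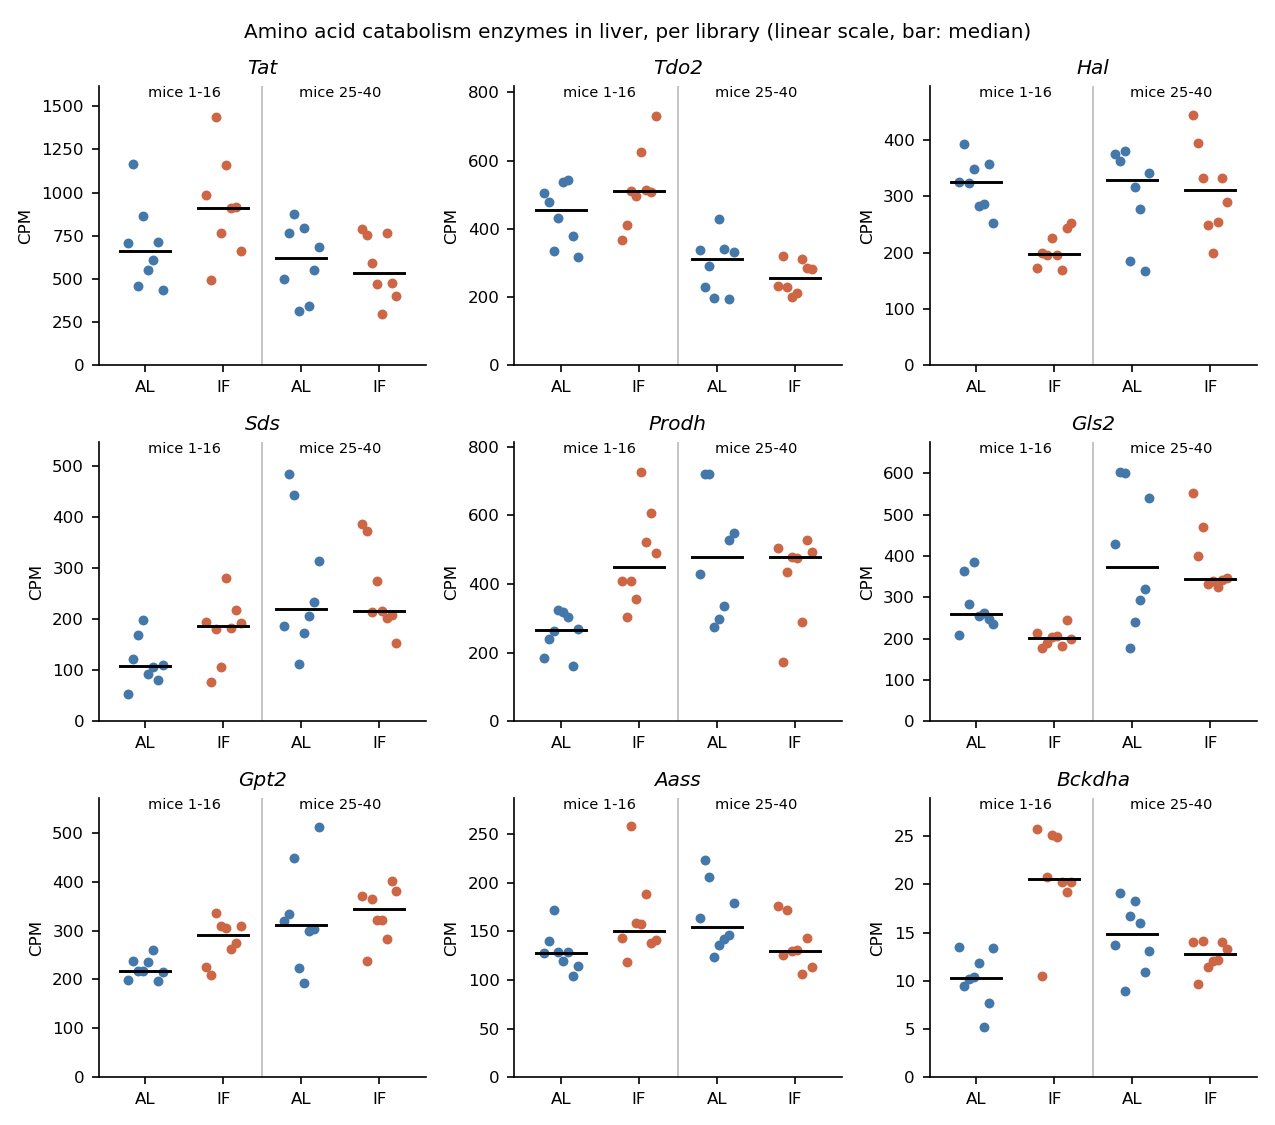
Level of each of the 9 enzymes in every liver library, in CPM on a scale of its own for each gene, by diet and mouse set, with 8 libraries a group and a line at the median. In the male mice Hal lay lower in 8 of 8 IF libraries than in any AL library, Prodh and Bckdha rose in IF, and in the female mice the AL and IF ranges of all 9 overlapped.

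Tat, tyrosine aminotransferase, takes the amino group from tyrosine in the first step of its breakdown. In male liver it ran from 439 to 1164 CPM in AL (median 660) and from 493 to 1440 CPM in IF (median 912). The groups overlapped over most of their range, with 6 of 8 IF libraries above the AL median. The log2 fold change of 0.32 ± 0.19 (SE; 95% interval -0.08 to 0.72) did not pass (adjusted p = 0.186). Without mice 2 and 10, the pair missing from the study's protein tables, Tat was at 0.52 and passed (adjusted p = 0.0211), while without IF mouse 11 alone it was at 0.13. The 5 other listed genes of the pathway had a median log2 fold change of 0.05. Hpd, the dioxygenase that acts on the product of Tat, rose from a median of 2024 to 3750 CPM, a log2 fold change of 0.80 ± 0.12.

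Tdo2, tryptophan dioxygenase, opens the ring of tryptophan and starts the kynurenine pathway. Its male liver level was 316 to 542 CPM in AL (median 455) and 368 to 731 CPM in IF (median 510). The ranges overlapped, 6 of 8 IF libraries lay above the AL median, and the log2 fold change of 0.15 ± 0.14 did not pass (adjusted p = 0.396). Without IF mouse 16 Tdo2 was at 0.06. Of the 9 other listed genes of tryptophan breakdown, 7 were lower in IF, Kyat3 was higher and Afmid did not pass, with a median log2 fold change of -0.62. Beside this, 21.1% of all genes tested were lower. Kynu, which cleaves kynurenines, fell from a median of 96.8 to 47.7 CPM (-1.10 ± 0.13), and Kmo, which hydroxylates kynurenine, from 212 to 147 CPM (-0.60 ± 0.10). Acmsd, which steers the pathway away from the making of NAD, fell from 14.2 to 10.7 CPM (-0.62 ± 0.19). Ido2, a dioxygenase that opens the same ring as Tdo2, fell from 64.3 to 26.7 CPM (-1.33 ± 0.13). Per length, Tdo2 therefore made up 82.6 to 89.4% of the summed Tdo2 and Ido2 transcripts in AL and 92.2 to 96.8% in IF, ranges that did not meet.

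Hal, histidine ammonia-lyase, removes the amino group of histidine and so starts its breakdown. In male liver it was at 254 to 393 CPM in AL (median 325) and at 169 to 253 CPM in IF (median 199). No IF library reached the lowest AL library, though mouse 16, the highest of the IF mice, lay just under AL mouse 8, the lowest of the AL mice. Hal was lower in 8 of 8 IF libraries, with a log2 fold change of -0.73 ± 0.12 (95% interval -0.97 to -0.49; adjusted p = 1.87e-05), or 1.65-fold. The 3 enzymes that follow Hal on the way to glutamate were all lower in IF, with a median log2 fold change of -1.01. Uroc1 fell from a median of 587 to 300 CPM (-1.10 ± 0.13), Amdhd1 from 324 to 178 CPM (-0.98 ± 0.11) and Ftcd from 1104 to 650.1 CPM (-1.01 ± 0.12). Beside these, 21.1% of the genes tested in male liver were lower.

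Sds, serine dehydratase, turns serine into pyruvate and ammonia and is known to rise in liver with glucagon. Its levels were 52.7 to 199 CPM in AL males (median 109) and 77.0 to 280 CPM in IF males (median 187). It varied the most of the 9 among AL males, with a coefficient of variation of 40.5%, against 9.51% for Gpt2, and the diets overlapped. The log2 fold change of 0.50 ± 0.26 (95% interval -0.05 to 1.06), with 6 of 8 IF libraries above the AL median, did not pass (adjusted p = 0.131). Without AL mouse 4 it was 0.66 and passed (adjusted p = 0.0403), and without IF mouse 13 it was 0.36. Of the 12 tested genes of serine, glycine and threonine breakdown, 4 were higher and 5 lower, beside 23.5% higher and 21.1% lower over all genes tested, with a median log2 fold change of 0.08. Sdsl, a relative of Sds, rose from 16.5 to 33.7 CPM (0.93 ± 0.12), and Gnmt, which methylates glycine, from 555 to 1733 CPM (1.59 ± 0.12). Amt, a subunit of the glycine cleavage system, fell from 44.4 to 22.1 CPM (-1.13 ± 0.14). Of the antisense neighbours of Sds, Plbd2 was higher in IF, at 0.35, and Gm15690 did not pass, at 0.28.

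Prodh, proline dehydrogenase, performs the first step of proline oxidation in mitochondria and passes its electrons to the respiratory chain. In male liver it ran from 161 to 326 CPM in AL (median 266) and from 305 to 725 CPM in IF (median 450). Of the 8 IF libraries, 7 lay above the highest AL library, and the lowest, mouse 10, lay within the AL range. Its log2 fold change was 0.78 ± 0.16 (95% interval 0.45 to 1.12; adjusted p = 0.000409), or 1.72-fold, with 8 of 8 IF libraries above the AL median. Dgcr6, which overlaps Prodh on the opposite strand, was also higher, at 1.18. Its part in the Prodh result was not tested. Dgcr6 did not pass in male muscle or cortex, at -0.13 and 0.10.

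The other listed genes of the proline route went both ways or did not pass. Prodh2, which starts hydroxyproline breakdown, had medians of 814 and 853 CPM and did not pass, at 0.05 ± 0.12. Per length, the median share of Prodh in the summed Prodh and Prodh2 transcripts was 9.49% in AL males and 15.5% in IF males, with overlapping ranges. Aldh4a1, the next enzyme for both substrates, rose from 190 to 248 CPM (0.30 ± 0.09). Hoga1, the last enzyme of hydroxyproline breakdown, fell from 151 to 98.3 CPM (-0.68 ± 0.10). Oat, which brings ornithine into the same route, did not pass, at -0.15 ± 0.16. The list of 4 thus had 1 gene higher and 1 lower, beside 23.5% higher and 21.1% lower over all genes tested, with a median log2 fold change of -0.05.

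Gls2, the liver-type glutaminase, releases ammonia from glutamine and is known to be made by the periportal hepatocytes that also make urea. Its male liver level was 210 to 386 CPM in AL (median 259) and 178 to 244 CPM in IF (median 202). Of the 8 IF libraries, 6 lay below the lowest AL library and 8 below the AL median, and the IF mice were also less spread. In log2 terms Gls2 differed by -0.56 ± 0.12 (95% interval -0.81 to -0.32; adjusted p = 0.000388), or 1.48-fold. Its neighbours Spryd4 and Gm52965 did not pass, at -0.31 and 0.15.

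Gpt2, the mitochondrial alanine aminotransferase, exchanges the amino group between alanine and glutamate. It ran from 197 to 260.4 CPM in AL males (median 218) and from 209 to 336 CPM in IF males (median 290.2). Although 6 of 8 IF libraries lay above the highest AL library, mice 9 and 10 lay within the AL range. The log2 fold change of 0.23 ± 0.11 did not pass (adjusted p = 0.0955). It passed without AL mouse 6, at 0.28 (adjusted p = 0.0379), without IF mouse 10, at 0.27 (adjusted p = 0.0497), and with library size as the only scaling, at 0.33 (adjusted p = 0.0135). Without IF mouse 11 Gpt2 was at 0.13. Of the 5 other genes of glutamine, glutamate and alanine use, 4 were higher in IF, and the median log2 fold change was 0.37. Beside this, 23.5% of all genes tested were higher. Gpt, the cytosolic partner of Gpt2, rose from 303 to 396 CPM (0.35 ± 0.10) and Got1, an aspartate aminotransferase, from 69.8 to 159 CPM (1.16 ± 0.26). Per length, Gpt2 was 27.7% of the summed Gpt2 and Gpt transcripts in AL males and 26.1% in IF males, with overlapping ranges. Glud1, glutamate dehydrogenase, did not pass, at -0.21 ± 0.10.

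Aass, the enzyme with 2 activities that starts lysine breakdown in mitochondria, was at 104 to 172 CPM in AL males (median 128) and 119 to 258 CPM in IF males (median 150.3). The ranges overlapped, 7 of 8 IF libraries lay above the AL median, and the log2 fold change of 0.24 ± 0.14 did not pass (adjusted p = 0.168). With library size as the only scaling it passed, at 0.33 (adjusted p = 0.0493), while without IF mouse 11 it was at 0.06. The 3 other listed genes of the route all passed, Gcdh higher and Aldh7a1 and Dhtkd1 lower, where 44.6% of all genes tested passed, with a median log2 fold change of -0.36. Dhtkd1, a subunit of the complex that oxidises oxoadipate, fell from a median of 74.5 to 32.1 CPM (-1.42 ± 0.14), and Aldh7a1, which follows Aass, from 311 to 266 CPM (-0.36 ± 0.10).

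Bckdha, the E1 alpha subunit of the branched-chain keto acid dehydrogenase, takes part in the step that commits leucine, isoleucine and valine to oxidation. In male liver it was at 5.17 to 13.5 CPM in AL (median 10.3) and at 10.5 to 25.8 CPM in IF (median 20.5). Among the IF mice 7 lay between 19.2 and 25.8 CPM, above every AL library, and mouse 10 stood apart at 10.5 CPM. Bckdha thus had a log2 fold change of 0.92 ± 0.17 (95% interval 0.58 to 1.26; adjusted p = 7.53e-05), or 1.90-fold, with 8 of 8 IF libraries above the AL median. B3gnt8, its antisense neighbour, was lower, at -0.63.

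The partners of Bckdha went both ways or did not pass, and their changes were not tested against that of Bckdha. Bckdhb, the E1 beta subunit that pairs with it, rose from a median of 109 to 144 CPM (0.39 ± 0.12), while Dbt, the E2 core, fell from 108 to 88.7 CPM (-0.34 ± 0.13). Dld, the E3 subunit, Bckdk, the kinase that switches the complex off, and Ppm1k, the phosphatase that switches it on, did not pass, at 0.18, 0.10 and -0.19. Per length, the median ratio of Bckdha to Bckdhb was 0.0864 in AL males and 0.135 in IF males, and that of Bckdha to Dbt 0.162 and 0.423, both with overlapping ranges. In AL and IF alike Bckdha was thus the scarcer E1 transcript in liver. Over the 19 tested genes of branched-chain amino acid breakdown, 4 were higher and 8 lower, beside 23.5% higher and 21.1% lower over all genes tested, with a median log2 fold change of -0.23. Bcat2, the mitochondrial transaminase, fell from 115 to 56.4 CPM (-1.07 ± 0.17). Pccb, a subunit of propionyl-CoA carboxylase, rose from 58.2 to 148 CPM (1.27 ± 0.12).

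Among 11 regulators known to act on liver metabolism, 5 were higher, 1 lower and 5 did not pass in male liver, beside 23.5% higher and 21.1% lower over all genes tested, and their median log2 fold change was 0.14. Foxo1, which insulin signalling keeps out of the nucleus, rose from a median of 14.4 to 43.0 CPM (1.57 ± 0.12), Cebpb from 86.0 to 293 CPM (1.56 ± 0.18) and Ppara, a sensor of fatty acids, from 10.5 to 29.1 CPM (1.24 ± 0.16). Atf4, which is translated when amino acids are short, fell from 191 to 139 CPM (-0.65 ± 0.13). Klf15, a factor known for its role in amino acid breakdown, and Nr3c1, the glucocorticoid receptor, did not pass, at -0.10 ± 0.13 and -0.17 ± 0.12. Of the 8 genes of methionine and cysteine breakdown, in which the 9 enzymes have no part, 3 were higher and 5 lower (median -0.58), beside the same shares over all genes, among them Bhmt, which fell from 3030.2 to 542 CPM (-2.59 ± 0.17).

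Transcripts of red blood cells also differed in male liver. The 5 erythrocyte markers summed to 362 to 956 CPM in AL (median 569) and 667 to 6879 CPM in IF (median 2070.4). Of the 5 markers 3 passed as higher, beside 23.5% of all genes tested. The most abundant was Hba-a1 in AL (312 CPM) and Hbb-bs in IF (907 CPM), and none was at 0. With these markers as a covariate, Prodh was at 0.96 (adjusted p = 0.00412), Gls2 at -0.49 (adjusted p = 0.0412), Hal at -0.63 (adjusted p = 0.00808) and Bckdha at 1.14 (adjusted p = 0.000684), so all 4 still passed. Gpt2 passed in that fit as well, at 0.44 (adjusted p = 0.029). Over all genes, 3995 of the 16204 tested passed with the covariate, against 7234 without it. In bulk tissue, fewer cells of a type and less RNA per cell cannot be told apart.

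The markers of liver zones moved in a mixed way. Of 7 periportal markers, Hsd17b13 and Pck1 were higher and Cyp2f2 lower in IF males, and their sum went from a median of 4321 to 5996 CPM, with Ass1 as the most abundant gene (1558 and 1523 CPM). Of 9 pericentral markers, 4 were higher (Glul, Slc1a2, Rhbg and Cyp2e1) and 3 lower (Cyp1a2, Tbx3 and Lgr5), and their sum went from 4120 to 10967 CPM, most of it Cyp2e1 (2736 and 8858 CPM). Of 6 macrophage markers, C1qa and Clec4f were higher, and their sum went from 188 to 262 CPM, with Clec4f as the most abundant gene (94.1 and 128 CPM). Beside these counts, 23.5% of all genes tested were higher and 21.1% lower. No marker of these lists was at 0 in every library, and the part of zones and macrophages in the Gls2, Hal, Prodh and Bckdha results was not tested.

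In liver of the female mice none of the 9 enzymes passed. By edgeR 0 of 9 were called, beside 0% of the 15938 genes tested. At an unadjusted p under 0.05 there were 919 genes and 0 of the 9 enzymes, and by DESeq2 4 genes and 0 enzymes. The median log2 fold change of the enzymes was -0.07, and their values ran from -0.23 ± 0.15 for Aass to 0.08 ± 0.20 for Hal, with adjusted p from 0.865 to 0.994. The AL and IF ranges overlapped for each enzyme.

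The enzymes that differed in male liver had these levels in the females. Prodh ran from 274 to 722 CPM in AL (median 479) and 172 to 528 CPM in IF (median 477), at -0.15 ± 0.24. The AL females thus lay near the IF males, whose median was 450 CPM, a comparison between the sets that was not tested. Hal was at 167 to 380 CPM in AL (median 329) and 200 to 445 CPM in IF (median 311). Bckdha was at 8.93 to 19.1 CPM in AL (median 14.9) and 9.66 to 14.1 CPM in IF (median 12.7). Its IF libraries all lay inside the AL range, though 8 of 8 were below the AL median, and the log2 fold change of -0.17 ± 0.15 did not pass (adjusted p = 0.882). Gls2 was at 179 to 605 CPM in AL (median 375) and 325 to 552 CPM in IF (median 345). It varied more among the AL females than among the AL males, with coefficients of variation of 41.6% and 22.2%. Of the other 5, the medians in AL and IF were 619 and 534 CPM for Tat, 311 and 257 CPM for Tdo2, 219 and 216 CPM for Sds, 312 and 344 CPM for Gpt2, and 155 and 130.1 CPM for Aass. No gene of the lists of partner enzymes, regulators or markers passed in female liver, and the erythrocyte markers summed to medians of 522 and 512 CPM.

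The difference in response between the mouse sets was tested as such. In liver 3 of 9 enzymes passed, beside 23.7% of the 17658 genes tested. The response was more positive in males by 1.05 ± 0.23 log2 for Bckdha (adjusted p = 0.000677) and by 0.90 ± 0.31 for Prodh (adjusted p = 0.0327), and more negative for Hal, at -0.84 ± 0.23 (adjusted p = 0.00713). The libraries behind these are the 8 of 8 IF males above the AL median for Bckdha and Prodh and below it for Hal, with 0, 3 and 4 of 8 IF females above theirs for Bckdha, Prodh and Hal. The Prodh difference did not pass when every gene with at least 1 count was tested, at 0.89 (adjusted p = 0.0654). For Gls2 the difference of -0.58 ± 0.26 did not pass (adjusted p = 0.112), so its lower level in IF is not shown to differ between the sets. The same holds for Aass, at 0.44 ± 0.21 (adjusted p = 0.126), and for Tat, Sds, Tdo2 and Gpt2, at 0.14 to 0.54.

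**Figure D2:**
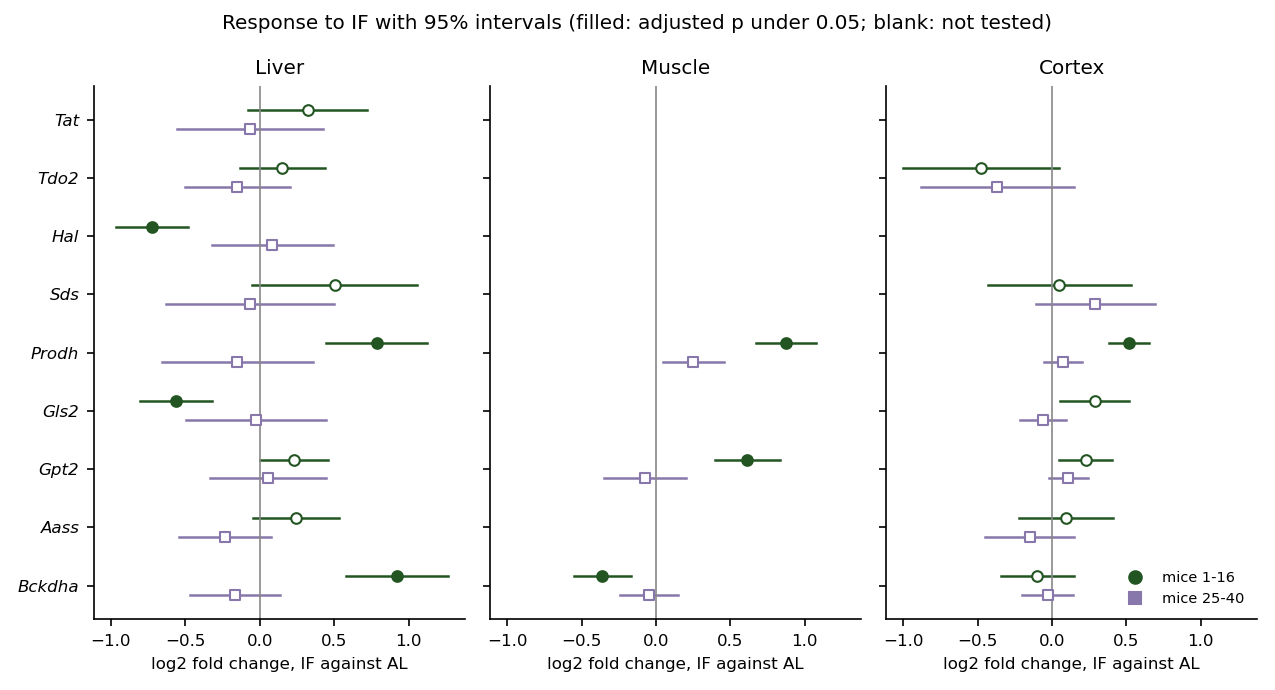
Log2 fold change of each enzyme, IF over AL, in each tissue and mouse set, with bars for the 95% interval from edgeR, filled where the adjusted p was under 0.05; enzymes that did not pass the expression filter are left out. Prodh was positive and passed in the 3 tissues of the male mice, Bckdha was positive in liver (0.92) and negative in muscle (-0.36), and no enzyme passed in the female mice.

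In muscle of the male mice Prodh and Gpt2 were higher in IF and Bckdha lower. Only these 3 of 9 enzymes passed the filter on low counts, each well above it in both diets, and each was called, beside 23.0% of the 15025 genes tested. The other 6 were at most 0.511 CPM in every male muscle library, with highest counts of 4 for Tat, 5 for Hal, 6 for Aass, 13 for Sds, 15 for Tdo2 and 20 for Gls2. Over all genes tested the median log2 fold change was 0.01.

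Prodh ran from 8.58 to 12.4 CPM in AL males (median 9.32) and from 14.2 to 22.7 CPM in IF males (median 18.5). The groups did not overlap, and the highest AL library, mouse 6, was itself set off from the next, at 10.4 CPM. The log2 fold change was 0.87 ± 0.10 (95% interval 0.67 to 1.07; adjusted p = 1.79e-06), or 1.83-fold, higher in 8 of 8 IF libraries. Prodh2 was at or near 0 in muscle, and Prodh made up at least 99.6% of the pair per length in male muscle and 96.7% in female muscle. Aldh4a1, the next enzyme, was lower in IF males, from a median of 69.6 to 67.1 CPM (-0.16 ± 0.06), and Oat did not pass (0.10 ± 0.08).

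Gpt2 was at 160 to 213 CPM in AL males (median 176) and at 209 to 364 CPM in IF males (median 290). Mouse 12 alone among the IF mice lay inside the AL range. Its log2 fold change was 0.61 ± 0.11 (95% interval 0.40 to 0.83; adjusted p = 0.000324), or 1.53-fold, with 8 of 8 IF libraries above the AL median. Gpt did not pass, with medians of 30.02 and 29.5 CPM (-0.03 ± 0.14), and the median share of Gpt2 in the pair, per length, went from 74.6% to 84.7%, with overlapping ranges. The 5 partner genes had a median of -0.03, and Got2 was lower (-0.37 ± 0.06).

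Bckdha was at 44.3 to 53.0 CPM in AL males (median 49.0) and at 29.7 to 55.0 CPM in IF males (median 37.5). The IF mice were more spread: 6 of 8 lay below the lowest AL library, while mouse 10, at 50.5 CPM, lay among the AL mice and mouse 12, at 55.0 CPM, above them. Over all 16 libraries the log2 fold change was -0.36 ± 0.09 (95% interval -0.55 to -0.17; adjusted p = 0.00729), or 1.28-fold, with 6 of 8 IF libraries below the AL median. B3gnt8 did not pass in muscle, at 0.22. Of the 19 tested genes of branched-chain amino acid breakdown 4 were higher and 0 lower in IF males, beside 11.5% higher and 11.6% lower over all genes tested (2553 and 1073 genes with library size alone, against 1726 and 1737), with a median of 0.13. Dbt rose from 17.4 to 21.9 CPM (0.27 ± 0.08) and Hibch, of the valine route, from 28.4 to 34.4 CPM (0.26 ± 0.08), with Hibadh and Aldh6a1 as the others. Bckdhb, Dld, Bckdk and Ppm1k did not pass, at 0.16, 0.13, 0.08 and -0.14. Per length the median ratio of Bckdha to Bckdhb went from 1.77 to 1.19, and that of Bckdha to Bckdk from 0.465 to 0.325, both with overlapping ranges. So muscle held more Bckdha than Bckdhb transcript, where liver held less.

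Among the regulators, 6 of 8 tested in male muscle were higher in IF and 0 lower, beside 11.5% higher and 11.6% lower over all genes tested, with a median log2 fold change of 0.73. With library size alone these were 2553 and 1073 genes, against 1726 and 1737. Klf15 rose from a median of 22.0 to 40.8 CPM (0.77 ± 0.09), Foxo1 from 8.24 to 15.02 CPM (0.87 ± 0.21) and Ppargc1a, a coactivator of mitochondrial genes, from 15.4 to 30.1 CPM (0.70 ± 0.12). Cebpa, Cebpb and Nr3c1 were higher too, at 1.71, 0.76 and 0.27. Of the other lists, 2 of 2 genes of tyrosine breakdown were higher (Fah 1.33, Gstz1 0.40), 1 of 3 of lysine (Dhtkd1 0.76) and 2 of 5 of methionine and cysteine (Cdo1 2.07, Csad 0.97). Afmid was the 1 gene of 4 for tryptophan, and lower, at -1.01. Of 9 for serine and glycine, Shmt1 was higher (0.43) and Shmt2 lower (-0.25), and no listed gene of histidine breakdown was tested.

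Fat cell transcripts moved with the diet in male muscle. The 5 adipocyte markers summed to 11.5 to 142 CPM in AL (median 40.3) and 45.5 to 717 CPM in IF (median 221). Adipoq, Plin1, Cidec and Retn, 4 of the 5, were higher, beside 11.5% of all genes tested. None of the 5 markers was at 0 in every library, and the most abundant was Cidec (12.4 and 84.6 CPM). With these markers as a covariate, a fit chosen after seeing the data, Prodh was at 0.84 (adjusted p = 6.32e-05), Gpt2 at 0.75 (adjusted p = 0.000187) and Bckdha at -0.50 (adjusted p = 0.00138), and all 3 passed. In that fit 3349 of the 15025 genes tested passed. Of the 6 muscle fibre markers, Ckm and Mylpf were lower, at -0.19 and -0.29, beside 11.6% of all genes tested. The sum of the 6 had medians of 153984 and 149510 CPM.

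In muscle of the female mice 0 of the 3 tested enzymes were called, beside 0.00653% of the 15308 genes tested, which is 1 gene by edgeR. At an unadjusted p under 0.05 there were 1644 genes, with Prodh as the 1 enzyme, and DESeq2 called 83 genes and 0 enzymes. Prodh was at 6.84 to 9.97 CPM in AL (median 8.77) and 7.76 to 12.3 CPM in IF (median 9.77). The groups overlapped, 6 of 8 IF libraries lay above the AL median, and the log2 fold change was 0.25 ± 0.10 (adjusted p = 0.392). Gpt2 was at 149 to 284 CPM in AL (median 185) and 138 to 209 CPM in IF (median 170), at -0.07 ± 0.13. Bckdha was at 47.3 to 63.3 CPM in AL (median 55.1) and 36.3 to 63.1 CPM in IF (median 51.6), at -0.04 ± 0.09. No gene of the partner lists or the regulators passed in female muscle.

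Between the sets, 2 of the 3 enzymes that passed the filter in muscle of each set differed in response, beside 14.2% of the 16346 genes tested. Gls2 and Tdo2, which passed the filter in neither set alone, entered this joint fit on at most 22 and 15 counts a library and are not counted. The male response exceeded the female one by 0.67 ± 0.18 log2 for Gpt2 (adjusted p = 0.00991) and by 0.60 ± 0.14 for Prodh (adjusted p = 0.0032). IF libraries lay above the AL median in 8 of 8 males and 2 of 8 females for Gpt2, and in 8 of 8 and 6 of 8 for Prodh. For Bckdha the difference of -0.33 ± 0.14 did not pass (adjusted p = 0.1005), so its lower level in male muscle is not shown to be absent in females.

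In cortex of the male mice Prodh was the 1 enzyme called. Of the 9 enzymes 7 passed the filter and 1 was called, beside 7.21% of the 18462 genes tested. The median log2 fold change of the 7 was 0.10, beside -0.0049 over all genes tested. Tat and Hal, at no more than 0.313 and 0.149 CPM, were not tested.

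Prodh ran from 31.8 to 40.1 CPM in the 7 AL males (median 36.4) and from 45.7 to 58.6 CPM in the IF males (median 51.0). The groups did not overlap, and both were tight, with coefficients of variation of 7.60% and 8.90%. The log2 fold change was 0.52 ± 0.07 (95% interval 0.38 to 0.65; adjusted p = 0.000381), or 1.43-fold, higher in 8 of 8 IF libraries. The omitted library of AL mouse 1, whose sex-linked genes were female-like, held 46.5 CPM of Prodh, within the AL female range of 39.9 to 48.4 CPM. That level was above the 7 AL male libraries and within the IF male range, so with this library the groups overlap. Prodh was then at 0.46 (adjusted p = 0.00651), while the count of all genes called fell from 1332 to 294. Prodh2 was at or near 0 in cortex, and Aldh4a1 and Oat did not pass (-0.0031 and -0.09).

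Gls2 and Gpt2 did not pass in male cortex, though most of their IF libraries lay high. Gls2 was at 25.7 to 40.8 CPM in AL (median 31.1) and 30.7 to 46.6 CPM in IF (median 41.7), with 7 of 8 IF libraries above the AL median and a log2 fold change of 0.29 ± 0.11 (adjusted p = 0.118). The omitted library held 40.9 CPM of it. Gpt2 was at 36.2 to 54.6 CPM in AL (median 43.6) and 45.8 to 59.7 CPM in IF (median 51.7), with 8 of 8 IF libraries above the AL median, at 0.23 ± 0.09 (adjusted p = 0.104). It passed without AL mouse 7 or 8, at 0.28 in each case (adjusted p = 0.0337 and 0.0467), and was at 0.18 without AL mouse 5. Per length, Gpt2 was 46.6% of Gpt2 and Gpt in AL males and 50.3% in IF males, with overlapping ranges.

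The remaining enzymes of male cortex did not pass either. Bckdha was at 9.52 to 14.5 CPM in AL (median 11.3) and 7.39 to 12.9 CPM in IF (median 10.9), at -0.10 ± 0.12. Aass had medians of 3.16 and 3.30 CPM (0.10 ± 0.15), Sds 1.498 and 1.27 CPM (0.05 ± 0.23) and Tdo2 0.525 and 0.429 CPM (-0.48 ± 0.25; adjusted p = 0.258). Over all genes tested in male cortex 3.79% were higher and 3.43% lower. Of the partner genes, Sardh was the 1 of 11 called for serine and glycine (0.33 ± 0.10) and Ivd, of the leucine route, the 1 of 20 for branched-chain amino acids (0.23 ± 0.05). Klf15 was the 1 regulator of 8, rising from a median of 18.5 to 26.997 CPM (0.50 ± 0.10). The lists for tyrosine, tryptophan, proline, lysine, glutamine and methionine held 0 called genes by edgeR among 2, 5, 3, 3, 5 and 6 tested. Of 5 astrocyte markers Aqp4 was lower (-0.51), their sum had medians of 671 and 610 CPM with Slc1a3 as the most abundant gene (291 and 260 CPM), and none was at 0. Their part in the Prodh result was not tested. None of the 5 neuron markers passed, at -0.09 to 0.06, and of the other cell markers the 1 tested adipocyte gene, Retn, was lower (-0.83).

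In cortex of the female mice 0 of the 7 tested enzymes were called, beside 0.0109% of the 18403 genes tested, which is 2 genes by edgeR. At an unadjusted p under 0.05 there were 2069 genes and 0 enzymes, and DESeq2 called 64 genes and 0 enzymes. Prodh was at 39.9 to 48.4 CPM in AL (median 43.1) and 37.7 to 50.4 CPM in IF (median 47.5). The groups overlapped, 5 of 8 IF libraries lay above the AL median, and the log2 fold change was 0.07 ± 0.06 (95% interval -0.06 to 0.20; adjusted p = 0.639). Gls2 had medians of 41.5 and 40.9 CPM (-0.06 ± 0.07), Gpt2 39.3 and 43.9 CPM (0.11 ± 0.06) and Bckdha 12.1 and 11.6 CPM (-0.03 ± 0.08). Sds, Aass and Tdo2 were at 0.29 ± 0.19, -0.15 ± 0.14 and -0.37 ± 0.25.

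Between the sets, 1 of 7 enzymes differed in its cortex response, beside 2.03% of the 19547 genes tested. The male response of Prodh exceeded the female one by 0.44 ± 0.09 log2 (adjusted p = 0.00919), with IF libraries above the AL median in 8 of 8 males and 5 of 8 females. For Gls2 the difference of 0.34 ± 0.14 did not pass (adjusted p = 0.194).

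**Figure D3:**
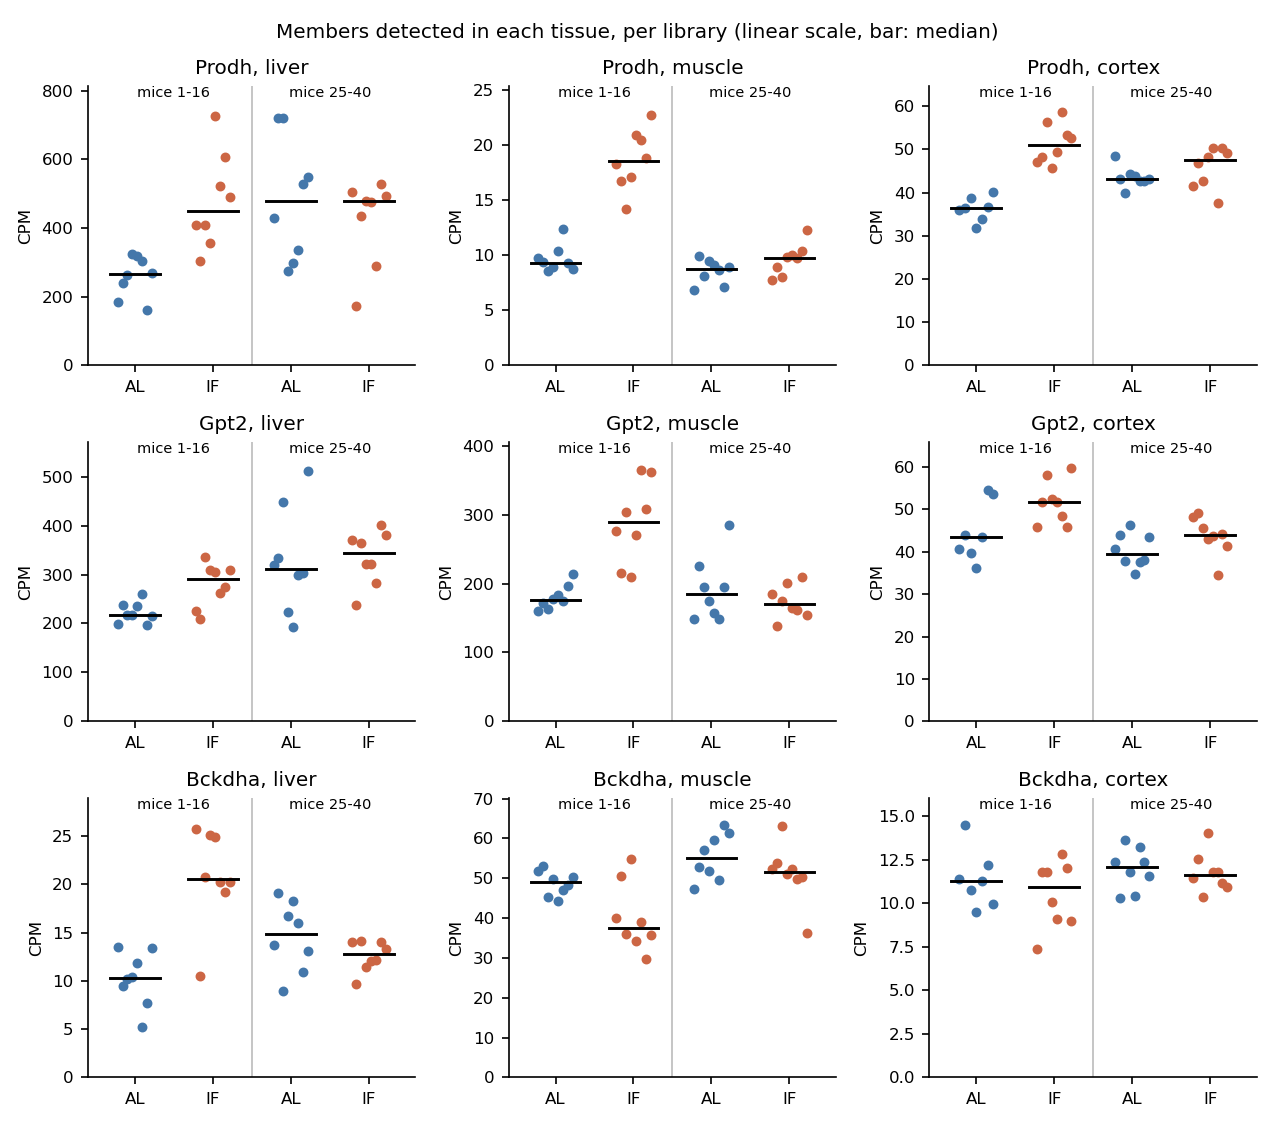
Level of Prodh, Gpt2 and Bckdha, the 3 enzymes that passed the filter on low counts in every tissue, in each library of liver, muscle and cortex by diet and mouse set, in CPM on a scale of its own for each panel, with a line at the median. In the male mice Prodh lay higher in IF in the 3 tissues, without overlap in muscle (14.2 to 22.7 against 8.58 to 12.4 CPM) and cortex (45.7 to 58.6 against 31.8 to 40.1 CPM), and Bckdha lay higher in liver and lower in muscle.

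The male tissues were also compared with each other in fits that keep each mouse as a block. Of the 3 enzymes that passed the filter on low counts in muscle itself, 1 differed in response between liver and muscle, beside 30.3% of the 18222 genes tested. Tat, Sds, Aass, Gls2, Tdo2 and Hal entered this fit through their liver level, so they are not counted. Bckdha differed by 1.30 ± 0.20 log2 (adjusted p = 4.94e-05), higher in 8 of 8 IF libraries than the AL median in liver and lower in 6 of 8 in muscle. Of the 6 not counted Tdo2 was past the threshold, at 1.11 ± 0.39, on no more than 15 counts a library in muscle. Between liver and cortex, without mouse 1, 2 of the 7 enzymes that passed the filter in cortex differed, beside 22.9% of the 20730 genes tested, while Tat and Hal entered through their liver level alone. Gls2 differed by -0.93 ± 0.18 (adjusted p = 0.00105), with 0 of 8 IF libraries above the AL median in liver and 7 of 8 in cortex. Bckdha differed by 1.09 ± 0.26 (adjusted p = 0.00463), with 4 of 8 IF libraries above the AL median in cortex.

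For Prodh the differences between male tissues did not pass. The response in liver minus that in muscle was -0.11 ± 0.17 (95% interval -0.45 to 0.24; adjusted p = 0.679), and minus that in cortex 0.17 ± 0.18 (95% interval -0.22 to 0.55; adjusted p = 0.571). Gpt2 in liver against muscle was at -0.39 ± 0.15 and did not pass (adjusted p = 0.0527). In the female mice 0 of the 3 enzymes that passed the filter in muscle differed in response between liver and muscle, beside 0% of the 18311 genes tested, and 0 of the 7 that passed in cortex between liver and cortex, beside 0% of the 20506 tested. The other 6 and 2 entered through their liver level and are not counted. By edgeR without adjustment, 835 and 1635 genes were under 0.05, and DESeq2 was not run on these differences.

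How the enzymes varied together was described over the 32 liver libraries, from log2 CPM with the mean of each of the 4 groups of diet and set taken away. Libraries share depth and cell composition, so these correlations are a description. Of the 36 pairs of enzymes 11 had Pearson's r over 0.5 and 6 were under 0, with a median of 0.335. The highest was Sds with Gls2 (0.736), followed by Prodh with Gpt2 (0.705) and Gls2 with Hal (0.654). Bckdha stood outside, with r from -0.138 with Gls2 to 0.120 with Aass. With the mean of the periportal markers r was 0.653 for Hal and 0.575 for Tdo2, followed by Tat and then Gls2 (0.411), and ran from -0.0394 for Bckdha to 0.302 for Gpt2 among the other 5. With that of the pericentral markers it ran from -0.527 for Gls2 and -0.425 for Sds to 0.331 for Tdo2.

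Among 13423 genes, those most like 7 of the enzymes in these libraries were as follows. For Tat it was Klf15 (r = 0.720), and for Aass it was Crem (0.726), a factor that responds to cAMP, with Got1 in the third place (0.691). For Gls2 the nearest named genes were Asl, of the urea cycle (0.815), and Gpt (0.803), and for Hal it was Ass1, also of the urea cycle (0.773), then Gm5424 and Cth (0.739). For Prodh it was Acot11 (0.786), and for Bckdha Acadvl, of fatty acid oxidation (0.777). For Sds it was Gm15690 (0.862), which overlaps it on the opposite strand, and whether reads of the overlap feed both counts was not tested.

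Because Prodh, Gls2, Hal and Bckdha differed in male liver in both directions, the 250 bases before the start of their canonical GENCODE transcript are shown, as the gene's strand reads, from GRCm39. For Prodh that start, and so the window, lies inside the span given above for the whole gene. The windows are chr16:17907157-17907406 (minus strand) for Prodh, chr10:128030066-128030315 (plus) for Gls2, chr10:93324379-93324628 (plus) for Hal and chr7:25358421-25358670 (minus) for Bckdha. Capitals mark TGACG, the half-site of the cAMP response element, in Gls2, the TATA box TATAAA on the other strand in Hal, and the E-box CACGTG in Bckdha; Prodh held none of the motifs searched.
Prodh: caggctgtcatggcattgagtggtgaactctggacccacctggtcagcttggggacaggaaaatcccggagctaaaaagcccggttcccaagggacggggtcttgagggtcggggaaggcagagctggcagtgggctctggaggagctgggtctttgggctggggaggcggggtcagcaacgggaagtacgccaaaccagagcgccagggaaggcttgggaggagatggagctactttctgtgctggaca
Gls2: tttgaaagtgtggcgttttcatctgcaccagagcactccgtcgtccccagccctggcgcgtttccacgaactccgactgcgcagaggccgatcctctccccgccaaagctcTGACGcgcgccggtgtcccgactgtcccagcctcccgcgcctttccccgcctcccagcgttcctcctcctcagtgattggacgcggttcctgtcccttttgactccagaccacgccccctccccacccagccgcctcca
Hal: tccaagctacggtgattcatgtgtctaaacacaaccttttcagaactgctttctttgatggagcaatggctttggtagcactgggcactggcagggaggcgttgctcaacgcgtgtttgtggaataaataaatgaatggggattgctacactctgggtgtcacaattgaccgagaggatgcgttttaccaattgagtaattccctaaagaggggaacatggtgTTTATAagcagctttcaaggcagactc
Bckdha: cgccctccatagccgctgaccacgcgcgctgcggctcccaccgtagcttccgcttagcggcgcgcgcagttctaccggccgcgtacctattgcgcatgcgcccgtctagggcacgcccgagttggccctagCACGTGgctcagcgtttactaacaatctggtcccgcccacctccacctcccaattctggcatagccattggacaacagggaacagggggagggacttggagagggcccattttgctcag

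The motifs were searched on both strands in the same window of all 9 enzymes and of 21770 protein-coding genes. The half-site TGACG was in 3 of 9 (Aass, Gls2 and Gpt2) and in 18% of all promoters. The whole cAMP response element TGACGTCA, which contains that half-site, was in 0 of 9 and in 1.69% of all. CACGTG was in Bckdha alone of the 9, and in 6.26% of all, TATAAA in Hal alone, and in 11.9% of all. The glucocorticoid receptor half-site AGAACA was in Tdo2 alone, and in 14.3% of all. The forkhead motif GTAAACA (2.72% of all) and the C/EBP palindrome TTGCGCAA (0.165% of all) were in none of the 9. The share of G and C was 65.6% in Gls2, 64% in Bckdha and 61.2% in Prodh, against a median of 53.2% over all promoters, and 45.6% in Hal. A match is a description, not a site or a cause, and no match says only that these letters are not in this window.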

How the data were processed

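RNA of liver, muscle and cortex was sequenced from poly-A selected, strand-keeping libraries. The authors aligned the reads to mm39 with HISAT2 and deposited raw counts per gene, with base calls made by CASAVA. CPM were computed here from the deposited counts and each library's total, and RPKM from CPM and the deposited gene lengths. IF and AL were compared within each tissue and mouse set on raw counts by edgeR 4.0.16 (quasi-likelihood test, TMM scaling, R 4.3.3), over genes that passed its expression filter (a minimum count of 10 and a minimum total of 15). p-values were adjusted over all genes tested by the Benjamini-Hochberg method, with a threshold of 0.05. A gene is called where it passed. Differences between mouse sets and between tissues were tested as interactions, the latter with mouse as a block. The 1 library whose sex-linked genes went against its label was left out, so 95 of 96 libraries were used. The 9 enzymes, named in each comparison, and the lists of partner genes, regulators and markers were chosen with earlier results of these data known. Partner genes come from those lists alone: those that share a step or complex with an enzyme, and the called ones with the largest change. Neighbours are the annotated genes that overlap an enzyme, and the genes of like pattern are the 3 with the highest correlation in liver, among genes with a mean of at least 1 CPM and with 1 CPM added before the log. Promoters were read from the GRCm39 genome before the start of each gene's canonical GENCODE transcript. Alternatives were DESeq2 1.42.0, other scalings, no filter, a 2-fold minimum, unadjusted p-values, marker covariates, blocks and leaving out libraries. Depth, 26097314 to 49838004 counts a library, limits the scarce transcripts of muscle and cortex. Other work used limma 3.58.1, Python 3.11.15, pandas 2.3.3, numpy 2.4.6 and matplotlib 3.10.9.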

Additional observations from a re-analysis of the deposited data

Results flagged for a closer look

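A single library stood far from the rest of its group in 3 of 76 groups of an enzyme, tissue, set and diet, where chance gives about 5 percent. Prodh in muscle of AL mouse 6 was at 12.4 CPM, with the next AL male at 10.4 CPM. Tdo2 in cortex of AL mouse 26 was at 1.11 CPM, with the next AL female at 0.718 CPM. Bckdha in liver of IF mouse 10 was at 10.5 CPM, with the next IF male at 19.2 CPM.

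The response to IF differed between the mouse sets, males minus females and by the test of the difference itself, for Prodh in liver (0.90), muscle (0.60) and cortex (0.44), for Hal (-0.84) and Bckdha (1.05) in liver and for Gpt2 in muscle (0.67). Between tissues of the male mice it differed for Bckdha (1.30) in liver against muscle, and for Gls2 (-0.93) and Bckdha (1.09) in liver against cortex. Tdo2 (1.11) in liver against muscle also passed, but it failed the filter on low counts in male muscle and entered through its liver level, so that value supports nothing. Sex and mouse set cannot be told apart.

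The cortex library of AL mouse 1, labelled male and used in no comparison unless said, held 213 CPM of Xist.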

How the results depend on the processing

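Over 1051 results of single enzymes under an alternative, 1000 kept their direction and their side of the threshold, 9 no longer passed, 14 newly passed, 28 that were not called changed sign, and 0 called ones reversed. Of the 9, 8 were lost by asking for a 2-fold change, under which 2388 genes passed in male liver, 399 in male muscle and 89 in male cortex, with 0 enzymes in each. The other was the Prodh difference between sets in liver. Gpt2 in liver against muscle passed without the mouse block, at -0.40 (adjusted p = 0.0469). All 108 levels moved by less than 1 SD under TMM scaling, whose factors were 0.867 to 1.12.

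At an unadjusted p under 0.05, genes called were 919 in female liver, 5309 in male muscle, 1644 in female muscle (1 enzyme), 4400 in male cortex (3 enzymes) and 2069 in female cortex. DESeq2 called 4 in female liver, 83 in female muscle, 2173 in male cortex and 64 in female cortex. With the erythrocyte covariate male liver had 3995 and female cortex 0. Testing every gene with at least 1 count gave 5 in female muscle and 220 for the difference between sets in cortex. With library size alone female cortex had 0, and the median log2 fold change of all genes in male liver moved from 0.06 to 0.15. With the replicate number as a block male cortex had 382 and female cortex 0, and without mice 2 and 10 male cortex had 498. With the library of AL mouse 1 male cortex had 294. Without the mouse block, 2 genes differed between liver and muscle and 2 between liver and cortex in females. The cause of these shifts was not tested.

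Leaving out 1 library gave 6842 to 7219 genes in male liver (4 to 5 enzymes), 0 to 0 in female liver, 2933 to 3740 in male muscle (3 to 3 enzymes), 1 to 3 in female muscle, 638 to 2060 in male cortex (1 to 2 enzymes) and 0 to 254 in female cortex. The called enzymes of male liver, muscle and cortex passed in each of these fits, and 0 enzymes were called in the female ones. These fits include those without 1 library of a nearest pair. Such pairs were mice 39 and 40 in female IF liver and cortex, and mice 14 and 16 in male IF muscle. Each library of a pair was counted as a separate animal. Male cortex had 638, 766 and 771 genes without AL mice 2, 3 and 5, and 877, 2060, 866 and 823 without IF mice 11, 12, 13 and 14. Female cortex had 254 genes without AL mouse 26, 2 without AL mouse 32, and 0 or 1 without any of the others, and female muscle had 3 without AL mouse 27 and 2 without IF mouse 33. Equal numbers in the labels do not pair AL with IF mice: of 47 such pairs 6 were most alike with their own number, and the block changed no enzyme call.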
